A study of Homo sapiens with 4 samples.

Results

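The comparison described here is between 2 RNA samples of whole cell lysate, called inputs, both labelled as the esophageal squamous carcinoma line KYSE-150. One input is labelled as control cells with normal NSUN6, and the other as carrying a stable short hairpin RNA (shRNA) against NSUN6. Of 17064 gene rows, the 7754 whose 2 input values averaged 5 FPKM or more were kept. FPKM relates the sequenced fragments of a gene to its transcript length and to all mapped fragments. It is thus relative to each library, and differences between samples also depend on the other genes sequenced. Both cultures received 100 µg/ml cycloheximide, which stops ribosomes on mRNA, before lysis. The input was 10% of the cleared lysate, and polyribosome-bound RNA was pelleted through 30% sucrose from what remained. Poly(A) RNA of both fractions was sequenced, so there were 4 libraries in 4 groups and 1 library per group. Whether the hairpin cells were a pool or 1 clone is not given in the sources used here.

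Differences are given throughout as log2(FPKM + 1) of the knockdown-labelled library minus the control library, so that 1 is a 2-fold higher level and low genes are understated. With 1 library per group there is no replicate check and no test, and "higher" and "lower" compare these libraries only. A gene was counted as higher or lower from a 2-fold difference. Values of 2 libraries are given with control first and knockdown-labelled second. Polyribosome values are printed beside many of the inputs because it comes from the same cell samples and did not enter the choice of genes. It is not a replicate.

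KYSE-150 belongs to the squamous lineage. In esophageal epithelium the dividing basal cells make the keratins KRT5, KRT14 and KRT15 under the transcription factors TP63 and SOX2, and cells that leave the basal layer switch to KRT4 and KRT13 and build a cross-linked envelope from involucrin and small proline-rich proteins. Glandular epithelium relies on the simple keratins KRT8, KRT18, KRT19 and KRT7 and secretes mucins and AGR2. NSUN6 is a methyltransferase that places 5-methylcytosine on tRNA and mRNA, and METTL1 places 7-methylguanosine, mainly on tRNA.

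The table carries 2 sets of names for the same columns. Its header names both knockdown-labelled columns for a hairpin without a target, and the sample labels give the target as NSUN6. Its last line instead names the control columns K150 with a hairpin against GFP, and the knockdown-labelled columns K30 with a hairpin against Mettl1. Under those names the groups would differ in cells as well as in hairpin target, and the 2 could not be told apart here. The differences below are between libraries and are not read as effects of a knockdown. The last line also orders the knockdown-labelled fractions the other way, with the input before the polyribosome library. The header and labels were followed. Which set of names is right was not tested, so both candidate target genes are given first. NSUN6 had 8.85 and 3.83 FPKM in the inputs and 10.1 and 0.38 FPKM in the polyribosome libraries. The knockdown-labelled input therefore held 43.3% of the control level and the polyribosome library 3.75%. The latter rests on 0.38 FPKM, near the bottom of the scale, and 35.2% of all kept genes were at least 2-fold lower in the polyribosome pair. METTL1 had 13 and 5.98 FPKM in the inputs and 14.3 and 8.32 FPKM in the polyribosome libraries, or 45.9% of control in the inputs. Both genes sat near a 2-fold difference (-1.03 for NSUN6 and -1.01 for METTL1), and the NSUN6 difference was at the 13.7th percentile of all kept genes.

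The inputs differed widely. Of the 7754 genes, 1007 (13.0%) reached a 2-fold higher level in the knockdown-labelled input and 1106 (14.3%) a 2-fold lower one, 27.3% in all, and the median gene differed by 0.01. When the knockdown-labelled fractions were swapped, as the last line orders them, 1168 of the 7068 genes then kept were higher and 2098 lower around a median of -0.16, and the share of higher genes among those called went from 47.7% to 35.8%. Differences of at least 8-fold were found for 177 higher and 128 lower genes. Of these, 169 and 120 were also at least 2-fold different in the same direction in the polyribosome pair. Over all called genes the fractions shared less: 529 of the 1007 higher genes (52.5%, or 43.8% of those higher in polyribosome RNA) and 672 of the 1106 lower genes (60.8%, or 24.6%) were called in the same direction, and 94 and 38 in the opposite one. For the same genes the polyribosome pair had 15.6% higher and 35.2% lower, 50.8% in all. The fractions themselves differed at least 2-fold for 1.02% of genes in control cells and for 40.5% in knockdown-labelled cells, where 7.88% were higher and 32.6% lower on polyribosomes. None was higher on polyribosomes in control cells (0 of 7754). The part of that fraction difference in the results below was not tested. Just inside the limit of 5 FPKM, 474 genes with a mean under 6 FPKM had a median difference of -0.04, and just outside it 574 genes with a mean of 4 to 5 FPKM had -0.11.

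**Figure D1:**
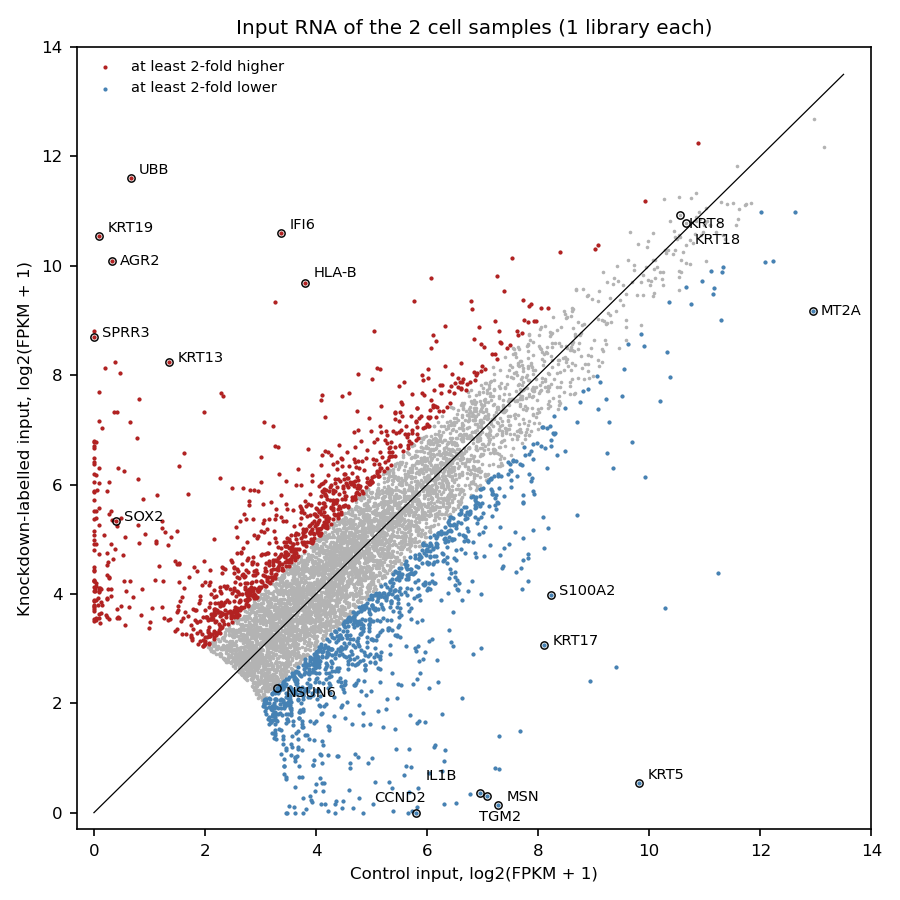
Level of each of the 7754 kept genes in control input (x axis) and knockdown-labelled input (y axis), both as log2(FPKM + 1); the line marks equal levels, red and blue points are genes at least 2-fold higher and lower, and circled genes are named in the text. KRT19, UBB and AGR2 lie on the left edge near the top, KRT5, TGM2 and MSN on the lower edge, and KRT8 and KRT18 on the line.

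The inputs were set apart by their keratins, the intermediate filament proteins by which epithelial types are told apart. KRT5 had 906 and 0.45 FPKM in the inputs and 1162 and 0.7 FPKM in the polyribosome libraries. KRT17 had 274 and 7.39 FPKM in the inputs and 329.6 and 11.7 FPKM in the polyribosome libraries, and KRT14 had 64.8 and 3.83 FPKM in the inputs and 87.7 and 3.92 FPKM in the polyribosome libraries. KRT15 had 176 and 29 FPKM in the inputs and 224 and 37.2 FPKM in the polyribosome libraries. The 4 basal or wound-type keratins were thus lower in knockdown-labelled cells in both fractions, and KRT5 was near the bottom of the scale there. The suprabasal esophageal keratin went the other way. KRT13 had 1.56 and 303 FPKM in the inputs and 2.6 and 392 FPKM in the polyribosome libraries, a difference of 6.89. KRT19 had 0.07 and 1488 FPKM in the inputs and 1.02 and 1973 FPKM in the polyribosome libraries. KRT7 had 5.42 and 60.4 FPKM in the inputs and 5.06 and 169 FPKM in the polyribosome libraries. KRT19 and KRT7 are simple keratins, but the pair that defines simple epithelium differed little. KRT8 had 1503 and 1941 FPKM in the inputs and 2120.3 and 2547 FPKM in the polyribosome libraries. KRT18 had 1616 and 1756 FPKM in the inputs and 2073 and 2185 FPKM in the polyribosome libraries. KRT6A (0.21) and KRT16 (0.48), keratins of activated keratinocytes, were also within 2-fold. In all, 8 of 14 squamous keratins passed the limit, of which 1 was higher and 4 lower (median -1.77; -1.28 in polyribosome RNA). The other 6 had at most 4.06 FPKM in either input, the highest being KRT4 with 0.05 and 4.06 FPKM. Summed over the 8 kept keratins, the inputs held 1488 and 405 FPKM. KRT14, KRT16 and KRT17 share long near-identical stretches, so the split between them is uncertain.

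The transcription factors of the squamous lineage did not follow the keratins as a block. Of 14 kept factors 5 were higher and 4 lower (median 0.30; -0.61 in polyribosome RNA). TP63, the master regulator of basal squamous cells, had 30.2 and 23.7 FPKM in the inputs, a difference of -0.34, and 28.8 and 2.16 FPKM in the polyribosome libraries. SOX2, its partner in squamous carcinoma, was seen almost only in knockdown-labelled cells, with 0.31 and 39.5 FPKM in the inputs and 0.27 and 8.28 FPKM in the polyribosome libraries. The thyroid and foregut factor FOXE1 was seen in the same cells, at 0.56 and 17.9 FPKM and 0.45 and 16.6 FPKM. OVOL1 had 5.32 and 19.4 FPKM in the inputs and 4.72 and 35.8 FPKM in the polyribosome libraries. Lower factors were BNC1, a basal keratinocyte zinc finger protein (9.55 and 1.64 FPKM in the inputs), PITX1 (35.3 and 9.13 FPKM), TRIM29 (148 and 53 FPKM) and SOX15 (251 and 107 FPKM). PITX1 had the opposite order in polyribosome RNA, at 23.7 and 36.5 FPKM. Of the factors of glandular epithelium only 3 of 16 in the table passed the limit: the epithelial differentiation factor ELF3, at 46 and 177 FPKM, KLF4, at 17.2 and 24.2 FPKM, and SOX9, at 14.5 and 5.63 FPKM. ELF3 was higher in both fractions and SOX9 lower in both.

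Of the products of differentiating squamous cells, those kept were mostly higher in knockdown-labelled cells or alike, and most of the list was not kept. SPRR3 had 0 and 413 FPKM in the inputs and 0.05 and 189.97 FPKM in the polyribosome libraries. SPRR1B had 0.56 and 140.4 FPKM in the inputs and 0.23 and 134 FPKM in the polyribosome libraries. SPRR1A had 0.47 and 31.7 FPKM in the inputs and 0.46 and 42.4 FPKM in the polyribosome libraries. These are small proline-rich proteins of the envelope. IVL had 0 and 17.9 FPKM in the inputs and 0.09 and 11.5 FPKM in the polyribosome libraries; it encodes involucrin, the first scaffold of the envelope. All 4 were under 1 FPKM in both control libraries, so they passed the limit only through the knockdown-labelled input. The 1 lower member was CSTA, a protease inhibitor built into the same envelope, with 64.8 and 0.65 FPKM in the inputs and 64.6 and 0.51 FPKM in the polyribosome libraries. Among the 9 kept genes 4 were higher and 1 lower, with a median difference of 0.56. In polyribosome RNA 4 were higher and 1 lower, with a median of 0.93. The other 21 of 30 list genes in the table had at most 4.7 FPKM in either input. They included FLG (0.15 and 0.03 FPKM), TGM1 (1.37 and 0.19 FPKM) and MAL (0 and 0.7 FPKM). SPRR1A and SPRR1B are close copies of each other.

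Secretory and mucosal genes divided. AGR2 had 0.25 and 1093 FPKM in the inputs and 0.15 and 316 FPKM in the polyribosome libraries; it is a disulfide isomerase needed for mucin folding. S100P had 0.41 and 41 FPKM in the inputs and 0.3 and 69.3 FPKM in the polyribosome libraries. PSCA had 7.03 and 65.4 FPKM in the inputs and 7.98 and 132 FPKM in the polyribosome libraries, a cell surface protein of prostate and gastric mucosa. These 3 genes were higher in both fractions, as was the mucin MUC20 at 0.21 and 18.9 FPKM in the inputs. The mucin MUC1 was lower, with 12.2 and 3.53 FPKM, and the secreted protease inhibitor SLPI was lower, with 154 and 49.8 FPKM. Among 14 kept genes 6 were higher and 2 lower, with a median of 0.48 (0.90 in polyribosome RNA). AGR2, S100P and MUC20 were under 1 FPKM in control input and passed the limit only through the knockdown-labelled input. The other 17 of 31 list genes in the table had at most 7.98 FPKM in either input. MUC5AC, MUC5B and TFF1 were listed at 0 in both inputs, while CLDN3 had 1.98 and 7.98 FPKM.

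**Figure D2:**
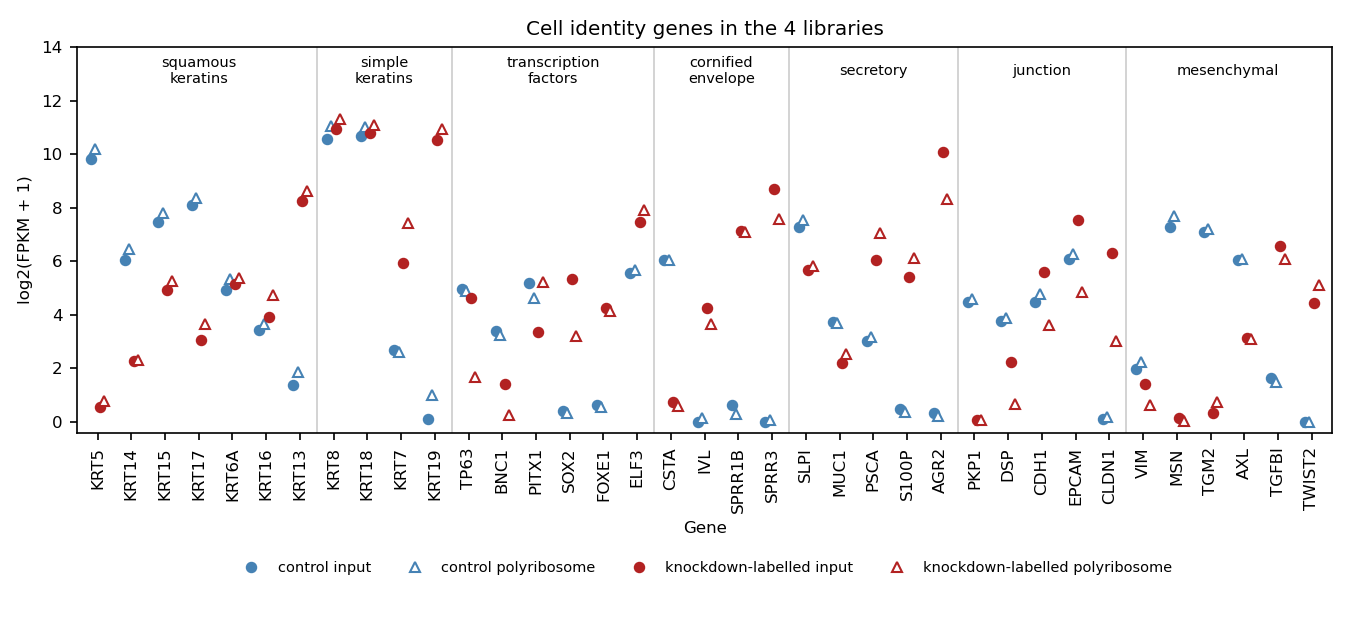
Levels of cell identity genes as log2(FPKM + 1) in the 4 libraries (circles, inputs; triangles, polyribosome RNA; blue, control; red, knockdown-labelled). The 2 fractions of control cells lie close together for every gene, KRT5, PKP1, CSTA, MSN and TGM2 are near 0 in both knockdown-labelled libraries, and KRT19, SPRR3, AGR2 and TWIST2 are near 0 or 1 in both control libraries.

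Epithelial junction genes were expressed in both inputs, and single members differed in either direction. The adherens junction cadherin CDH1 had 21.3 and 47.7 FPKM in the inputs and the adhesion molecule EPCAM 66.4 and 186 FPKM, both more than 2-fold higher in the knockdown-labelled input and both lower in its polyribosome library (26.3 and 11.2 FPKM and 76.6 and 28.1 FPKM). The desmosomal plaque protein PKP1 had 21.2 and 0.06 FPKM in the inputs and 23 and 0.05 FPKM in the polyribosome libraries. The tight junction protein CLDN1 was its mirror image in the inputs, at 0.07 and 77.9 FPKM, with 0.12 and 7.17 FPKM in the polyribosome libraries. Desmoplakin DSP (12.8 and 3.7 FPKM), PKP2 (27.1 and 10.1 FPKM) and the tight junction scaffold TJP1 (10.9 and 2.19 FPKM) were lower. PKP3, JUP, CDH3 and F11R were within 2-fold. Over the list, 4 of 28 kept genes were higher and 6 lower (median difference 0.17; 4 higher, 14 lower and median -0.79 in polyribosome RNA). The count of higher genes was near the 13.0% of all kept genes. The hemidesmosome and laminin list, which anchors basal cells to the basement membrane, had 3 of 9 higher and 0 lower (median 0.71; 0.68 in polyribosome RNA). Its higher members included the integrins ITGA6 (10.2 and 28.4 FPKM) and ITGB4 (41.9 and 91.3 FPKM). ITGA6 had the opposite order in the polyribosome libraries (6.37 and 2.34 FPKM), and ITGB4 the same one (43.1 and 116 FPKM).

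Genes often used to score mesenchymal features pointed in both directions. Of 20 kept, 4 were higher and 9 lower (median -0.88; 4 higher, 12 lower and -1.35 in polyribosome RNA). Several defining genes were low in both inputs: vimentin VIM had 2.9 and 1.68 FPKM, the N-cadherin gene CDH2 0.01 and 1 FPKM, and the repressors ZEB1 and ZEB2 0.04 and 0.06 FPKM and 0.01 and 0 FPKM. The transition factors SNAI2 (15.1 and 18.1 FPKM) and TWIST1 (12.5 and 8.07 FPKM) were expressed in both and within 2-fold. Among lower members, moesin (MSN), which ties actin to the membrane, had 155 and 0.1 FPKM in the inputs and 206 and 0.02 FPKM in the polyribosome libraries. Transglutaminase TGM2 had 134 and 0.24 FPKM in the inputs and 148 and 0.65 FPKM in the polyribosome libraries. The receptor kinase AXL (64.3 and 7.84 FPKM) and the hyaluronan receptor CD44 (131 and 36.2 FPKM) were lower as well. On the other side stood TGFBI, a matrix protein induced by TGF-beta, with 2.09 and 93.9 FPKM in the inputs and 1.79 and 65.9 FPKM in the polyribosome libraries. TWIST2 had 0 and 20.5 FPKM in the inputs and 0 and 33.7 FPKM in the polyribosome libraries. S100A4 (1.62 and 31.9 FPKM) and the YAP target CTGF (5.92 and 51.1 FPKM) were higher, while CYR61, another YAP target, was lower (298 and 112 FPKM). Markers of fibroblasts, endothelium, blood and immune cells were close to the bottom of the scale in both inputs: 23 of 25 in the table did not pass the limit, with a maximum of 2.93 FPKM, COL1A1 at 2.22 and 1.41 FPKM, PECAM1 at 0.09 and 0.04 FPKM and PTPRC at 0.49 and 0.63 FPKM. The 2 that passed were CD68, at 71.2 and 5.9 FPKM, and ACTA2, at 10.6 and 2.9 FPKM. Both are also made outside immune cells and fibroblasts.

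Genes that are normally silent outside the germ line, the cancer/testis genes, gave each input its own set. CTAG2 had 0.15 and 278 FPKM in the inputs and 0 and 537 FPKM in the polyribosome libraries. MAGEB2 had 0.73 and 67.8 FPKM in the inputs and 1.66 and 32.4 FPKM in the polyribosome libraries, and MAGEA10 had 0.17 and 25.8 FPKM in the inputs and 0.38 and 11 FPKM in the polyribosome libraries. These 3 antigens were next to absent from control cells. In the other direction, CSAG1 had 156 and 0.73 FPKM in the inputs and 111 and 1.97 FPKM in the polyribosome libraries. MAGEA12 had 49.5 and 0 FPKM in the inputs and 61.2 and 0 FPKM in the polyribosome libraries. Both are encoded on the X chromosome, like the MAGEA genes that did not differ. MAGEA3 (98.7 and 109.96 FPKM), MAGEA4 (284 and 208 FPKM) and MAGEA6 (77.4 and 93.9 FPKM) were expressed in both and within 2-fold. In total 3 of 11 kept members were higher and 5 lower (median -0.45), with 3 higher, 3 lower and a median of -0.70 in polyribosome RNA. MAGEA3 and MAGEA6, MAGEA2 and MAGEA2B, and CSAG1 and CSAG3 are near-identical pairs, so their split is uncertain.

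The homeobox genes of the HOX clusters, which record the position of a tissue along the body axis, also differed in part. Of 10 kept genes 2 were higher and 3 lower (median -0.50), with 2 higher, 2 lower and a median of -0.49 in polyribosome RNA. The shares among all kept genes were 13.0% higher and 14.3% lower, or 15.6% and 35.2% in polyribosome RNA. HOXB2 had 10.03 and 0 FPKM in the inputs and 7.28 and 0.26 FPKM in the polyribosome libraries. HOXC10 had 1.9 and 22.4 FPKM in the inputs and 0.79 and 17.7 FPKM in the polyribosome libraries. HOXC13 was higher (7.81 and 26 FPKM) and HOXA3 (24.2 and 8.02 FPKM) and HOXA4 (18.4 and 7 FPKM) lower, whereas HOXB4, HOXB7, HOXA7 and HOXA10 were among those within 2-fold. Among 4 kept neural and neuroendocrine genes, the neuropeptide GAL had 0 and 109.7 FPKM in the inputs and 0 and 186 FPKM in the polyribosome libraries. The neuronal enolase ENO2 (23.4 and 0.77 FPKM) and the adhesion molecule L1CAM (27.6 and 2.04 FPKM) were lower, and the tubulin TUBB3 was alike (98.4 and 91.6 FPKM).

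Many single genes were present in one input and next to absent in the other. With 20 FPKM or more in one and under 1 FPKM in the other, limits set with the values in view, 73 genes were on in the knockdown-labelled input only and 35 in the control input only. Of these, 49 and 27 also met the same limits in the polyribosome pair. UBB, one of the genes for polyubiquitin, had the largest difference of all, with 0.58 and 3124 FPKM in the inputs and 0.57 and 2786 FPKM in the polyribosome libraries. MGST1 had 0 and 444 FPKM in the inputs and 0.32 and 102 FPKM in the polyribosome libraries; it is a membrane glutathione transferase. CHCHD10 had 0.07 and 206 FPKM in the inputs and 0.42 and 352 FPKM in the polyribosome libraries, a mitochondrial protein. EEF1A2, the muscle and neuron form of elongation factor 1 alpha, had 0.1 and 129.96 FPKM in the inputs and 0.21 and 192 FPKM in the polyribosome libraries. The ribosomal protein gene RPL39L, normally testis-enriched, had 0 and 84.5 FPKM and 0 and 172 FPKM. Genes on only in control input included the D-type cyclin CCND2, at 54.8 and 0 FPKM. AKR1B1, the aldose reductase, had 108 and 0.27 FPKM, and CYBA, a subunit of NADPH oxidase, 90.4 and 0.13 FPKM. All 3 of these were under 1 FPKM in the knockdown-labelled polyribosome library too. UBB, RPL39L and EEF1A2 have close relatives or pseudogenes, so reads shared with these make them uncertain.

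Some differences lay side by side on chromosomes. Genes were put in order along each chromosome (7707 of the kept genes could be placed, using RefSeq gene order of GRCh38.p14, with no coordinates because the submitters name hg19), and the median difference was taken in windows of 15 neighbouring kept genes. Overlapping windows with a median of at least 1, or at most -1, formed 17 runs of higher and 10 runs of lower expression. Because windows that shared any gene were joined, the median over a whole run can lie inside these limits. Between PURB and TMEM248 on chromosome 7, for example, it was 0.18. Together the runs held 691 genes. The input counts and medians of a run follow in part from this rule, and the polyribosome values did not enter it.

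The widest run of higher genes lay on chromosome 17 between PMP22 and NATD1. It held 45 genes, of which 27 were higher and 1 lower, with a median of 1.22 in input and 1.34 in polyribosome RNA. UBB lies in it. So do SREBF1, the sterol-sensing transcription factor (34.7 and 133 FPKM), ALKBH5, an RNA demethylase (48.7 and 116 FPKM), the fatty aldehyde dehydrogenase ALDH3A2 (25.9 and 128 FPKM in the inputs but 29.2 and 28.6 FPKM in the polyribosome libraries), TOM1L2 (13.4 and 98.8 FPKM) and DHRS7B (11.5 and 63 FPKM). The widest run of lower genes lay on the X chromosome between SYAP1 and PJA1, with 37 of 70 genes lower, 2 higher and a median of -1.03 (-1.11 in polyribosome RNA). MSN is in this run, as are the glutamine transporter SLC38A5 (51.7 and 0.02 FPKM) and the membrane protein PRAF2 (76.5 and 0.7 FPKM), while MAGEB2 stood out as higher.

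The segment known as 11q13, often amplified in squamous carcinoma, was the third example. Of 8 kept genes of that locus list 7 were higher and 0 lower (median 2.33; 1.84 in polyribosome RNA). Its cyclin CCND1 had 44.1 and 124 FPKM in the inputs and 48.9 and 33.9 FPKM in the polyribosome libraries. The death-domain adaptor FADD had 26 and 259 FPKM and 29 and 339.96 FPKM. The actin regulator cortactin (CTTN) had 70.1 and 396 FPKM and 89.8 and 219 FPKM. The chloride channel ANO1 (0.05 and 14.3 FPKM) and the cholesterol enzyme DHCR7 (0.07 and 142 FPKM) were under 0.1 FPKM in control input, and the kept members of the list ranged from 0.41 (ORAOV1) to 7.06 (DHCR7). A run between PPP6R3 and RNF121 covered the segment.

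The 7p11 list around EGFR behaved alike, with 8 of 9 genes higher and 0 lower (median 1.74; 1.15 in polyribosome RNA). EGFR, the receptor for epidermal growth factor, had 19.2 and 64.5 FPKM in the inputs and 12.5 and 10.1 FPKM in the polyribosome libraries. MRPS17 had 67.9 and 422 FPKM in the inputs and 90.6 and 331 FPKM in the polyribosome libraries. CCT6A had 111 and 589 FPKM in the inputs and 149 and 95.6 FPKM in the polyribosome libraries; it is a chaperonin subunit. LANCL2, VOPP1, GBAS, SUMF2 and SEC61G were higher by 1.43 to 2.14, and only PSPH was within 2-fold (-0.15). For EGFR, CCT6A and GBAS the polyribosome pair had the opposite order.

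Elsewhere on chromosome 7 and on chromosome 9 the runs were lower. Between RFC2 and MTERF1 17 of 32 genes were lower, among them the small heat shock protein HSPB1 (2498 and 514 FPKM). Between HOXA3 and STARD3NL 10 of 20 were lower. On chromosome 9, 9 of 18 genes between WASH1 and TUSC1 were lower, including the tumour suppressor CDKN2A (238 and 35.1 FPKM), PLGRKT (124 and 7.03 FPKM) and UHRF2 (32.3 and 5.68 FPKM), although MTAP, next to CDKN2A, had 8.4 and 10.5 FPKM. Chromosome 11 had 2 lower runs outside 11q13, with 16 of 31 genes lower between RRM1 and BTBD10 and 23 of 45 between SIDT2 and STT3A. On the long arm of chromosome 3, 4 of 14 genes of the squamous amplicon list were higher and 1 lower (median 0.67), but the same list had a median of -1.11 in polyribosome RNA. By whole chromosome, the share of higher genes was largest on chromosome 4 (27.3%), chromosome 8 (21.3%) and chromosome 1 (20.8%), against 13.0% overall. In polyribosome RNA these 3 had more lower than higher genes: 97 against 18 on chromosome 4, 100 against 48 on chromosome 8 and 242 against 161 on chromosome 1. The share of lower genes was largest on X (27.9%), chromosome 11 (24.3%) and chromosome 7 (20.1%), against 14.3%. In polyribosome RNA lower genes also outnumbered higher ones there, by 99 to 20, 180 to 73 and 151 to 48. Over all kept genes the polyribosome pair likewise had more lower (35.2%) than higher (15.6%) genes. Under windows of 9 genes the runs numbered 34 higher and 34 lower.

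**Figure D3:**
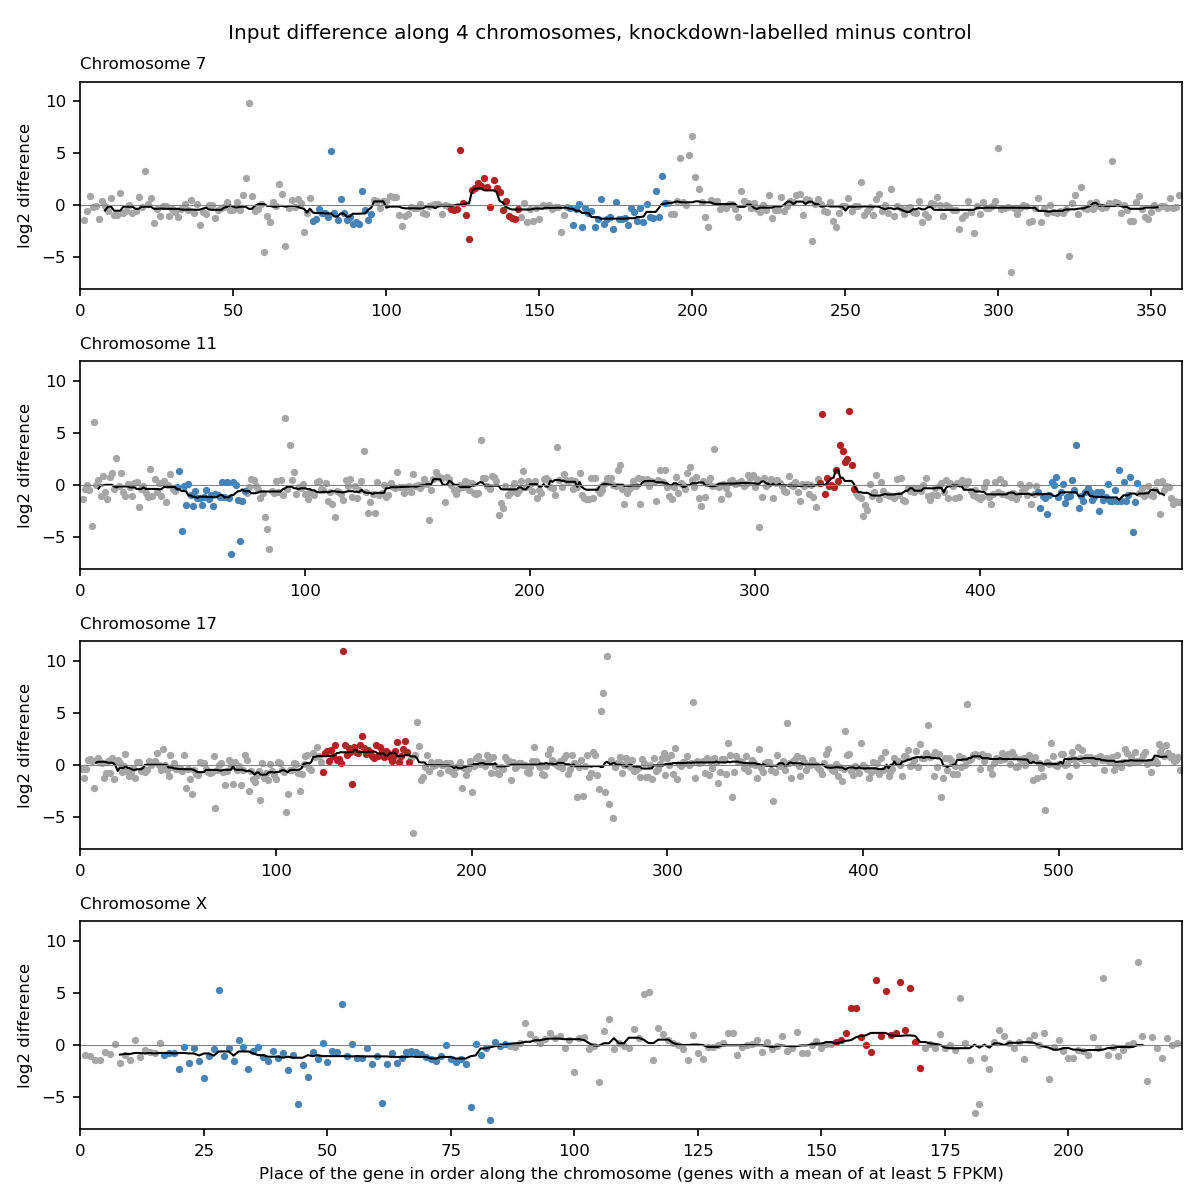
Difference of the inputs, log2(FPKM + 1) of knockdown-labelled minus control, for kept genes in order along 4 chromosomes; red and blue points are genes inside runs of higher and lower windows, grey points are the others, and the black line is the running median of 15 genes. The line rises above 1 over the chromosome 17 run and the EGFR and 11q13 neighbourhoods and stays near -1 over the first part of X.

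Among expression programs, genes induced by interferon differed most in the upward direction. Interferon binds its receptor, a transcription factor complex that holds IRF9 enters the nucleus, and antiviral genes are switched on. In the knockdown-labelled input 21 of 33 kept genes were higher and 1 lower (median 1.61, against 0.01 over all kept genes), and their summed level was 2801 FPKM in the control input against 7419 FPKM in the other. In polyribosome RNA 13 were higher and 6 lower, with a median of 0.37. Sequences are printed for 4 genes with upstream matches to the interferon-stimulated response element, the site bound by that complex. They were picked with results of these data known, so their matches and their higher levels serve as illustration only. The 200 bases before the annotated start of each are printed from RefSeq (GRCh38.p14), 5′ to 3′ on the strand of the gene, with each match in capitals: GAAA, any 2 bases and GAAA, or the reverse complement of that pattern.
IFI27: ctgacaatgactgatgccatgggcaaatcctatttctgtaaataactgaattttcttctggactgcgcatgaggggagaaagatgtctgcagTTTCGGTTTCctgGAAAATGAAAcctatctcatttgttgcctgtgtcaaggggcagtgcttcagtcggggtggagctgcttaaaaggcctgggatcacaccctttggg
IFI6: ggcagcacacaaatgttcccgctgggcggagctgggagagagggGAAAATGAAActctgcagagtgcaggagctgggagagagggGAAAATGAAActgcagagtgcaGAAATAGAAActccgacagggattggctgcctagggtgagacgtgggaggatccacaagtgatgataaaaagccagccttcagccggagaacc
BST2: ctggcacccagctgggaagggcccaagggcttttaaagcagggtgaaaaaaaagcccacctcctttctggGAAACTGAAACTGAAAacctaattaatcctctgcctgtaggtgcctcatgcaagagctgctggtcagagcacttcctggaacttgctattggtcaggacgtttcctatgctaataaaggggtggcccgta
ISG15: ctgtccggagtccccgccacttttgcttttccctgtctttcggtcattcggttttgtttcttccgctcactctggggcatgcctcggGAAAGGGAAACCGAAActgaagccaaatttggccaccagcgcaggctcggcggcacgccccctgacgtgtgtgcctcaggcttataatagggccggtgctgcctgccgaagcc
They lie at chr14:94110536-94110735, plus strand (IFI27), chr1:27672193-27672392, minus strand (IFI6), chr19:17405631-17405830, minus strand (BST2) and chr1:1013297-1013496, plus strand (ISG15). IFI27 has a match on each strand, IFI6 has 3 separate matches, and in BST2 and ISG15 a pair of matches overlap.

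These 4 genes, picked as stated, were higher in both fractions. IFI27 had 0.3 and 303 FPKM in the inputs and 0.29 and 428 FPKM in the polyribosome libraries. BST2 had 0.38 and 263 FPKM in the inputs and 0.56 and 338 FPKM in the polyribosome libraries; it is tetherin, which holds budding virions on the cell. IFI6 had 9.35 and 1541 FPKM in the inputs and 10.5 and 1514 FPKM in the polyribosome libraries. ISG15 had 109 and 658 FPKM in the inputs and 137 and 976 FPKM in the polyribosome libraries, a ubiquitin-like modifier. Both control libraries were far below both knockdown-labelled libraries for each. IFITM1, a membrane protein that blocks viral entry, had 8.58 and 642 FPKM in the inputs and 8.38 and 616 FPKM in the polyribosome libraries. Its neighbour IFITM3 was alike, at 2089.6 and 2140.03 FPKM, and IFITM2 was the only lower member, at 42.1 and 1.89 FPKM. The IFITM genes are close copies, so this split is uncertain. Members picked out after their values were seen show the limit of the program in polyribosome RNA. IFIT1 had 7.29 and 49.3 FPKM in the inputs but 6.17 and 6 FPKM in the polyribosome libraries. OAS1 was high in both, at 3.91 and 203 FPKM and 5.43 and 189.6 FPKM, and MX1, a classical member, was under 1 FPKM in all 4 libraries. IRF1 (-0.01) and PARP12 (-0.24) were alike in the inputs.

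The element itself was found in 18 of the 27 list promoters that the RefSeq table holds (66.7%), against 3.65% of all 27305 promoters and 2.72% of 6406 promoters of kept genes. It was present in 14 of 18 promoters of higher members and in 4 of 9 promoters of members within 2-fold. OAS1 (5.37) was among the higher members without it. Both strands were searched in the 300 bases from 250 before to 50 after the start, and overlapping matches were allowed. A match is a description of the letters, not evidence of binding. In the MHC class I list the element was present in 8 of 15 promoters. These were 2 of 7 promoters of higher members and 6 of 8 promoters of members within 2-fold. HLA-B (5.87) was among the higher members without it.

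Antigen presentation through MHC class I was higher in part. HLA-B had 13 and 819 FPKM in the inputs and 17.8 and 852 FPKM in the polyribosome libraries. HLA-C had 66.2 and 875 FPKM in the inputs and 81.3 and 1018 FPKM in the polyribosome libraries. B2M had 335 and 1215 FPKM in the inputs and 411 and 686 FPKM in the polyribosome libraries; it is the light chain shared by all class I molecules. The chaperone CALR (211 and 666 FPKM) and TAPBPL (2.51 and 10.5 FPKM) were higher too. The peptide transporter TAP1 had 22.1 and 20.9 FPKM, and the immunoproteasome subunits PSMB8 (32.8 and 16 FPKM) and PSMB9 (20.7 and 11.7 FPKM) sat just inside 2-fold on the lower side, whereas the subunit PSMB10 was higher (24.2 and 53.8 FPKM in the inputs and 28.5 and 76.2 FPKM in the polyribosome libraries). Of 18 kept genes 8 were higher and 0 lower (median 0.70; 0.48 in polyribosome RNA). HLA genes are highly similar and variable, which makes their split uncertain. None of the 11 MHC class II genes passed the limit (0 of 11).

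Inflammatory cytokines and NF-kB targets went the opposite way. NF-kB is the transcription factor of the acute inflammatory response and drives cytokines, adhesion molecules and acute-phase proteins. Of 24 kept genes 0 were higher and 17 lower (median -1.66), with 3 higher, 17 lower and a median of -1.81 in polyribosome RNA. IL1B had 123 and 0.29 FPKM in the inputs and 154 and 0.03 FPKM in the polyribosome libraries. IL1A had 47.1 and 0.62 FPKM in the inputs and 45.7 and 0.08 FPKM in the polyribosome libraries. Both interleukin-1 genes were therefore under 1 FPKM in both knockdown-labelled libraries. SAA1 had 77.7 and 0.11 FPKM in the inputs and 109 and 0.34 FPKM in the polyribosome libraries; it is an acute-phase protein. ICAM1 had 55.4 and 0.07 FPKM in the inputs and 55.9 and 0.14 FPKM in the polyribosome libraries; it binds leukocyte integrins. IL18 (80.5 and 30.8 FPKM) and PLAU, the urokinase (96.2 and 38.1 FPKM), were lower to a smaller degree. Not lower were NFKBIA, the inhibitor that NF-kB itself induces (101 and 120.2 FPKM), the chemokine CCL5 (15.1 and 20.7 FPKM) and CXCL16 (10.7 and 21.2 FPKM).

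In the integrated stress response, ATF4 raises amino acid synthesis and transport genes, and many of its genes were lower as well. Of 30 kept genes 1 was higher and 15 lower (median -0.98; -0.99 in polyribosome RNA). ATF4 had 432 and 180.2 FPKM in the inputs and 294 and 379.9 FPKM in the polyribosome libraries. Its target DDIT4, an inhibitor of mTORC1, had 606 and 94.8 FPKM and 687 and 101 FPKM. The amino acid transporter SLC7A5 had 615 and 140.3 FPKM and 631 and 199 FPKM. CTH, which makes cysteine (30.5 and 2.07 FPKM), DDIT3 (48.3 and 7.31 FPKM) and PPP1R15A (209.8 and 54.8 FPKM) were lower, and ATF5 was the higher gene (4.57 and 60.2 FPKM). Within the list, the serine enzyme PHGDH (0.86), PYCR1 (0.47) and SLC1A5 (0.26) did not share the lower level. The letters TGATGNAA, the core of ATF4 composite sites, were in 6 of 26 list promoters (23.1%), against 3.67% of all promoters, in 3 of 14 promoters of lower members and in 3 of 11 promoters of members within 2-fold.

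The metal-binding metallothioneins were lower in 4 of 4 kept genes in both fractions. MT2A had 7873 and 578 FPKM in the inputs and 5572 and 953 FPKM in the polyribosome libraries, which made it the most abundant of them. MT1E (1325 and 250 FPKM), MT1X (227 and 71.8 FPKM) and MT1F (69.4 and 1.36 FPKM) were lower, and the 4 together held 9495 and 901 FPKM in the inputs. These genes are near-identical, so their sum is firmer than any one value.

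**Figure D4:**
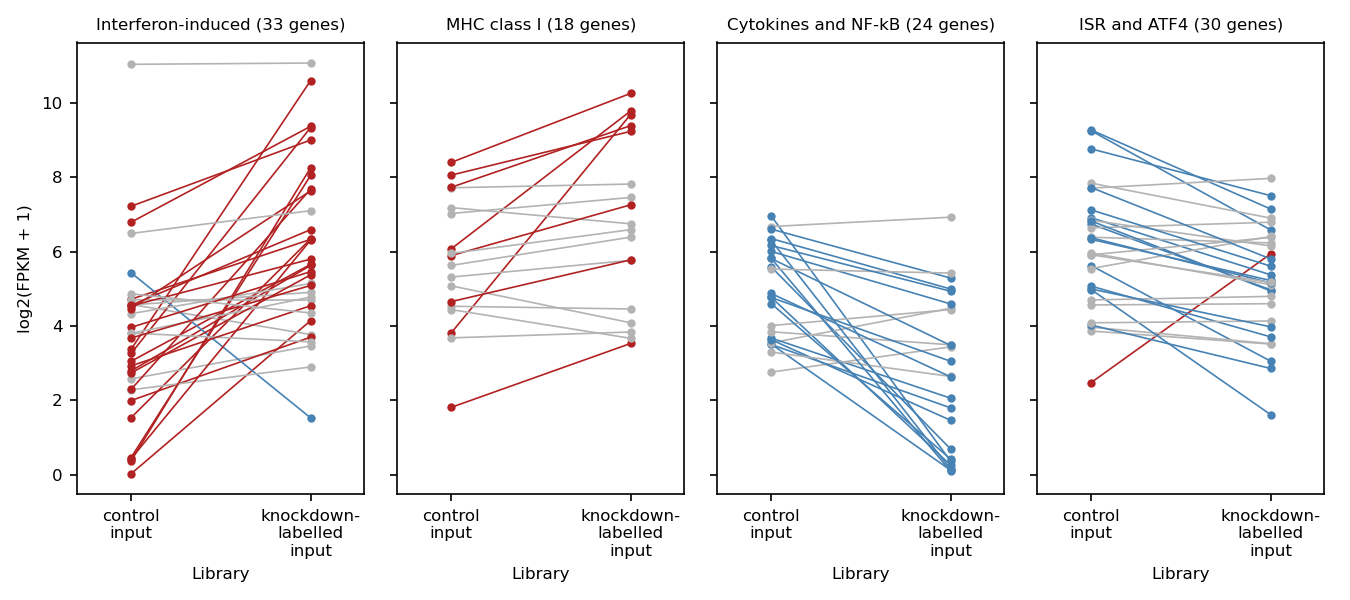
Levels of each kept gene of 4 programs as log2(FPKM + 1) in control input (left) and knockdown-labelled input (right), with lines joining the same gene; red and blue lines are genes at least 2-fold higher and lower, grey lines the others. Interferon-induced and MHC class I genes mostly slope upward or stay flat, and cytokine and integrated stress response genes mostly slope downward.

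Other stress programs differed gene by gene. The protein-folding and heat shock list had 13 of 27 genes higher and 2 lower (median 0.62), but 5 higher, 13 lower and a median of -0.76 in polyribosome RNA. The inducible HSP70 genes HSPA1A (32 and 448 FPKM) and HSPA1B (66.2 and 361 FPKM), which are near-identical, were higher in both fractions. HSP90AB1 was higher in input (518 and 1263 FPKM) and lower in polyribosome RNA (736 and 442 FPKM), and the small heat shock proteins HSPB1 and HSPB8 were lower in both. Endoplasmic reticulum chaperones had 9 of 29 higher and 1 lower (median 0.68; -0.52 in polyribosome RNA). HSPA5, the main chaperone of that compartment, had 51.1 and 151 FPKM in the inputs and 64.2 and 37.4 FPKM in the polyribosome libraries. The list of NRF2 targets, the antioxidant program, had 9 of 34 higher and 4 lower with a median of 0.21, and 9 higher, 9 lower and a median of -0.10 in polyribosome RNA. Apart from MGST1, its higher genes included EPHX1 (16.6 and 64.4 FPKM) and PRDX1 (539.9 and 1323 FPKM in the inputs but 823 and 735 FPKM in the polyribosome libraries), and the ferritin genes FTL (2285 and 775 FPKM) and FTH1 (4809.5 and 1083 FPKM) were lower. The ferritins had the reverse order in polyribosome RNA (640.1 and 7781 FPKM and 1906 and 4443 FPKM).

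Immediate early genes, the first to answer growth factors, had 9 of 31 higher and 5 lower (median 0.41; 0.35 in polyribosome RNA). MYC, a growth regulator, had 24.8 and 124 FPKM in the inputs and 26.3 and 79.4 FPKM in the polyribosome libraries. The phosphatase DUSP4 (8.76 and 46 FPKM) and BTG2 (10.1 and 65.6 FPKM) were also higher. FOSL1, an AP-1 subunit of squamous cells, was lower (238 and 58 FPKM and, in the polyribosome libraries, 249 and 85.9 FPKM), as was the stress factor ATF3 (106 and 30.4 FPKM). Targets of p53 had 3 of 21 higher and 1 lower (median -0.11; -0.15 in polyribosome RNA), with the cell cycle inhibitor CDKN1A at 44.4 and 104 FPKM. That share was near the 13.0% of all kept genes.

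Growth factor genes and their receptors split into ligands and receptors of each input. Of 19 kept genes 8 were higher and 5 lower (median 0.95; 0.19 in polyribosome RNA). Among ligands, AREG, which binds EGFR, had 44.3 and 223 FPKM in the inputs and 54.5 and 80.1 FPKM in the polyribosome libraries. NRG1, which binds ERBB3 and ERBB4, had 78.8 and 1.22 FPKM and 81.4 and 0.43 FPKM. HBEGF was lower (15.3 and 6.28 FPKM). Among receptors, FGFR3 was higher (3.21 and 17 FPKM) and FGFR2 lower (12.5 and 1.2 FPKM). The order of these ligands and receptors was the same in the polyribosome pair.

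Binding proteins of insulin-like growth factors showed a similar exchange. IGFBP2 had 0.34 and 159 FPKM in the inputs and 0.24 and 245 FPKM in the polyribosome libraries. IGFBP3 had 4.01 and 195 FPKM in the inputs and 5.18 and 165 FPKM in the polyribosome libraries. IGFBP6 (211 and 31.6 FPKM) and IGFBP7 (113 and 6.45 FPKM) were lower. The oncofetal RNA-binding protein IGF2BP1 (0.07 and 16.3 FPKM) was seen almost only in knockdown-labelled cells. In all 5 of 9 kept genes were higher and 3 lower (median 1.10). In the polyribosome pair 3 were higher and 4 lower, with a median of -0.14. Over all kept genes that pair had 15.6% higher, 35.2% lower and a median of -0.38.

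Signals that steer differentiation through Notch, Wnt, BMP and TGF-beta had 7 of 30 genes higher and 6 lower (median 0.18), with 9 higher, 12 lower and a median of -0.12 in polyribosome RNA. The ligand BMP4 had 0.19 and 15.9 FPKM in the inputs and 0.3 and 14.5 FPKM in the polyribosome libraries. The ID genes, direct BMP targets that block differentiation factors, were higher together. ID1 had 78.9 and 478 FPKM in the inputs and 79.9 and 647 FPKM in the polyribosome libraries. ID3 had 33.3 and 280.1 FPKM in the inputs and 34 and 477 FPKM in the polyribosome libraries. ID2 (0.85 and 52 FPKM) and the Notch target HEY1 (1.35 and 39.2 FPKM) were higher too. Lower were the TGF-beta ligands TGFB1 (162 and 21.1 FPKM) and TGFB2 (9.97 and 0.53 FPKM), the ligand WNT10A (21.4 and 0.16 FPKM) and the secreted DKK3 (40.6 and 0.02 FPKM). Each of these genes had the same direction in polyribosome RNA.

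Secreted, surface and calcium-binding families added single large differences. Their counts stand beside 13.0% higher and 14.3% lower among all kept genes in the inputs, and 15.6% and 35.2% in polyribosome RNA. Among S100 proteins 4 of 10 were higher and 2 lower (median 0.44; 1.07 in polyribosome RNA). S100A2, a TP63 target of basal cells, had 299 and 14.8 FPKM in the inputs and 362 and 23.7 FPKM in the polyribosome libraries. S100A6 had 185 and 1127 FPKM and 198 and 1682 FPKM. Among serpins and surface proteases, with 5 of 17 higher and 5 lower (4 and 6 in polyribosome RNA), the membrane protease PRSS8 was higher (8.36 and 133 FPKM) and the kallikrein KLK5 lower (225 and 25.5 FPKM). Annexins had 1 of 10 higher and 3 lower (median -0.19), but 1 higher, 7 lower and a median of -1.78 in polyribosome RNA, with ANXA3 at 72.3 and 4.21 FPKM. Their most abundant member, ANXA2, was within 2-fold in the inputs (1009 and 1407 FPKM) and had 1395 and 689 FPKM in the polyribosome libraries. Matrix genes had 5 of 16 higher and 2 lower (6 and 4 in polyribosome RNA), with the metalloprotease inhibitor TIMP3 (1.43 and 34.2 FPKM) and the proteoglycan SDC1 (75.1 and 204 FPKM) higher. Integrins had 2 of 6 higher and 0 lower, and 2 of each in polyribosome RNA. In the ion transport list, 4 of 14 were higher and 3 lower (5 and 4 in polyribosome RNA), among them the carbonic anhydrases CA2 (43.1 and 3.26 FPKM) and CA9 (27.7 and 0 FPKM) on the lower side.

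Among metabolic genes the lists differed. For comparison, 13.0% of all kept genes were higher and 14.3% lower in the inputs, and 15.6% and 35.2% in polyribosome RNA. The respiratory chain list had 4 of 56 genes higher and 1 lower, with a median of 0.01 (-0.28 in polyribosome RNA), a lower share than the 27.3% of all kept genes; CHCHD10 and CHCHD2 (971 and 2337 FPKM) were 2 of the higher ones. Glycolysis and hypoxia genes had 2 of 29 higher and 9 lower (median -0.24; -0.98 in polyribosome RNA). The core enzymes GAPDH (7998 and 6609 FPKM), ALDOA (1481 and 1517 FPKM) and TPI1 (1386 and 1585 FPKM) were alike. The hypoxia-inducible genes NDRG1 (208 and 16.1 FPKM), SLC2A3 (36.1 and 1.96 FPKM) and CA9 were lower. Other hypoxia-inducible genes were not, with P4HA2 higher (8.95 and 28 FPKM) and BNIP3 just within 2-fold (14.1 and 28.1 FPKM). The lactate exporter SLC16A3 was higher (59.7 and 241 FPKM). Cholesterol synthesis had 8 of 23 higher and 1 lower (median 0.73; 0.20 in polyribosome RNA). ACAT2 was seen almost only in knockdown-labelled cells (0.03 and 40.7 FPKM in the inputs and 0.03 and 26.7 FPKM in the polyribosome libraries). Fatty acid synthesis had 5 of 18 higher and 2 lower (median 0.31), with 3 higher, 8 lower and a median of -0.41 in polyribosome RNA. The desaturase SCD had 88.8 and 204 FPKM in the inputs but 95.4 and 83.5 FPKM in the polyribosome libraries, and FASN was within 2-fold in the inputs (51.8 and 60.02 FPKM).

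The mitotic genes were close in the 2 inputs. Shares over all kept genes were 13.0% higher and 14.3% lower in the inputs, and 15.6% and 35.2% in polyribosome RNA. Of 33 mitotic genes 1 was higher and 2 lower (median -0.17), with CDK1 at 33.7 and 63.8 FPKM and UBE2C at 451 and 243 FPKM. In polyribosome RNA the same list had 23 of 33 lower and a median of -1.86. DNA replication genes had 8 of 43 higher and 1 lower (median 0.47; -0.56 in polyribosome RNA), with the replication clamp PCNA at 126 and 286 FPKM in the inputs and 166 and 91.3 FPKM in the polyribosome libraries. Around the entry to S phase, the cyclins were exchanged: CCNE1 (2.6 and 20.3 FPKM) and CCND1 were higher, CCND2 was listed at 0, and the inhibitors CDKN2A and CDKN2D (24.2 and 5.56 FPKM) were lower. The list had 4 of 15 higher and 3 lower (4 and 5 in polyribosome RNA).

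Some RNA processing genes were higher in the input, most of them not in polyribosome RNA. Of 45 spliceosome and hnRNP genes 15 were higher and 0 lower (median 0.66), while the polyribosome pair had 1 higher, 13 lower and a median of -0.42. The splicing factors SRSF1 (14.3 and 66.3 FPKM), SRSF2 (63.9 and 277 FPKM), SRSF3 (45.9 and 151 FPKM) and TRA2B (21.7 and 72.5 FPKM) led the list. In the polyribosome libraries SRSF1 had 15.5 and 17.1 FPKM, SRSF3 63.2 and 44.5 FPKM and TRA2B 23.6 and 23.3 FPKM. Genes of RNA methylation had 2 of 18 higher and 4 lower (median 0.31), with 2 higher, 9 lower and a median of -0.94 in polyribosome RNA. All kept genes had 13.0% higher and 14.3% lower in the inputs, and 15.6% and 35.2% in polyribosome RNA, so the input counts were not far from these shares. NSUN6 and METTL1 were among the lower ones, with the rRNA methyltransferase NSUN5 (67.5 and 22.5 FPKM) and the mRNA adenosine methyltransferase METTL3 (33.6 and 8.47 FPKM). Both of the latter were lower by more than NSUN6 in the inputs (-1.54 and -1.87), and both were lower in polyribosome RNA. ALKBH5 and the reader YTHDF2 (13.8 and 33.7 FPKM) were higher, and YTHDF2 had the opposite order in polyribosome RNA (14.8 and 5.99 FPKM).

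The translation apparatus differed little in the inputs. Of 76 ribosomal protein genes 1 was higher and 10 lower (median -0.32), and their summed level was 129460 FPKM in the control input against 96306 FPKM in the other. In polyribosome RNA the median was 0.49, with 17 higher and 7 lower. RPLP1 (4353 and 1072 FPKM in the inputs, 1695 and 6379 FPKM in the polyribosome libraries) shows the reversal. Translation factors had 1 of 43 higher and 4 lower (median -0.06), the higher one being EEF1A2. Their polyribosome median was -1.34. Aminoacyl-tRNA synthetases had 1 of 20 higher and 3 lower (median -0.40; -2.29 in polyribosome RNA), and proteasome subunits had 2 of 31 higher and 0 lower (median 0.15; -0.82). Many ribosomal protein genes have processed pseudogenes, which makes single values uncertain.

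Read across both fractions, 27 of the 43 lists with at least 5 kept genes had medians of the same sign in both pairs and 16 had medians of opposite sign. The 11q13 and 7p11 loci, the hemidesmosome list and MHC class I had positive medians in both pairs, and the squamous keratins, cytokines, integrated stress response and mesenchymal genes had negative medians in both. Positive in the inputs and negative in polyribosome RNA were the medians of squamous transcription factors, junctions, integrins, the chromosome 3 locus, insulin-like growth factors, Notch, Wnt and TGF-beta, NRF2 targets, heat shock, endoplasmic reticulum, fatty acid, respiratory chain, DNA replication, spliceosome, RNA methylation and proteasome genes. Ribosomal proteins had the reverse. The median of all kept genes was 0.01 in the inputs and -0.38 in the polyribosome pair, so the latter values lie on a lower base.

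**Figure D5:**
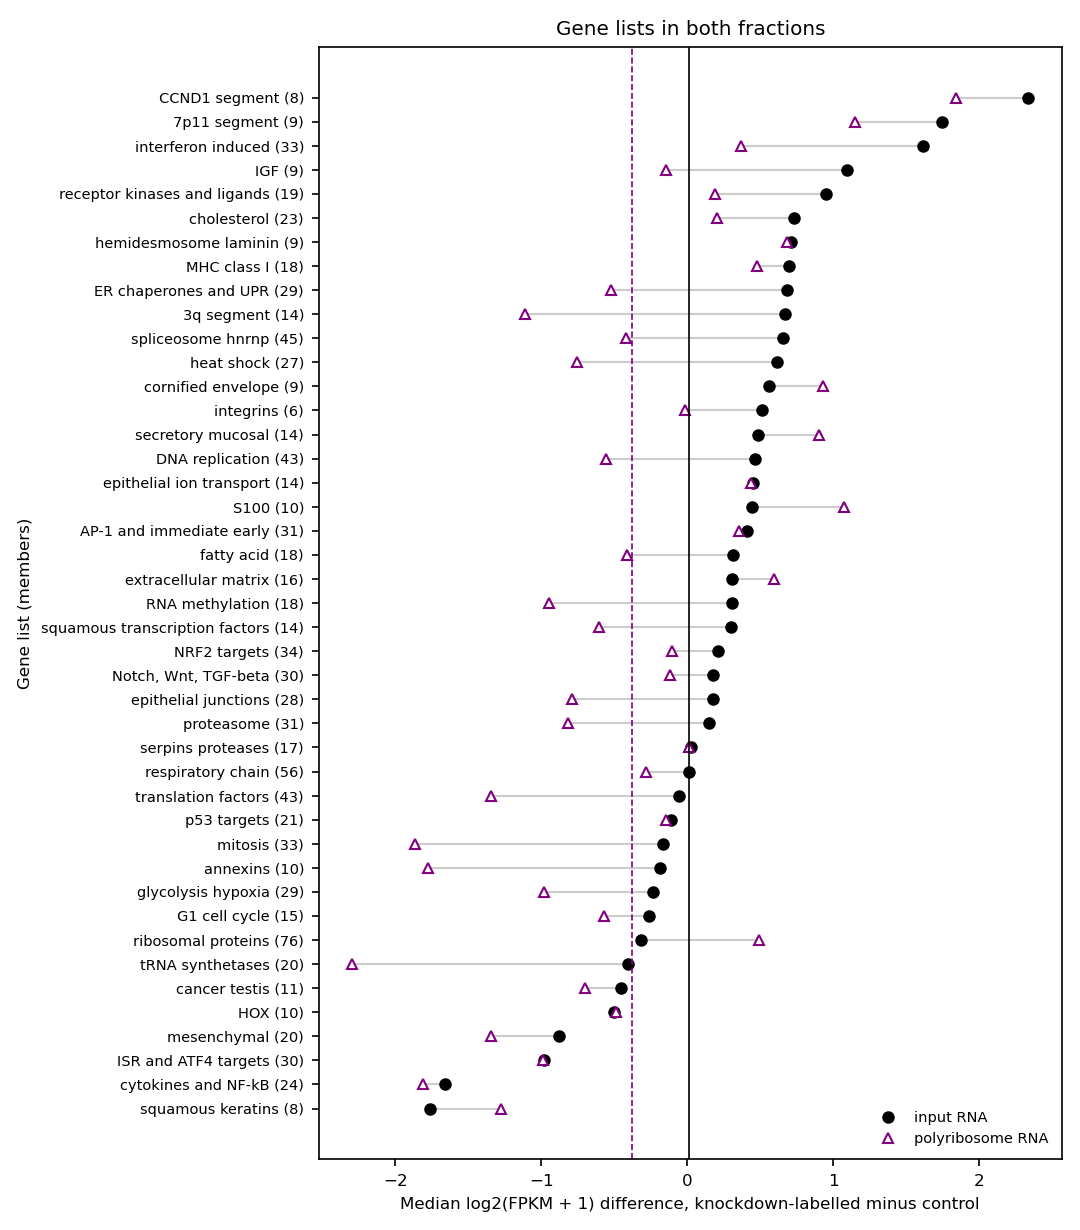
Median difference, log2(FPKM + 1) of knockdown-labelled minus control, of each list with at least 5 kept genes in input RNA (black circles) and polyribosome RNA (open triangles), with the number of kept genes in parentheses; the solid and dashed vertical lines are the medians of all kept genes in the 2 pairs. The 11q13 (CCND1 segment), 7p11 and interferon lists lie furthest to the right in input and the squamous keratins, cytokines and integrated stress response furthest to the left.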

How the data were processed

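Total poly(A) RNA and polyribosome-bound RNA were sequenced in control and knockdown-labelled cells, 1 library each. The authors deposited 1 table of FPKM per gene symbol and library. It also holds their deposited ratio of polyribosome to input FPKM, to which the values show that 5 was added above and below; that ratio was not used for any result. The submitters' processing notes name TopHat and the builds hg19 and GRCh37. For the counting tool, strand setting and annotation nothing is stated in those notes or labels. The library kit was stranded, per the labels' protocols. FPKM summed to between 538002 and 627887 per library. The lowest value above 0 was 0.01 FPKM, the rounding step, so sequencing depth is unknown and no interval was computed.

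Genes whose input values averaged 5 FPKM or more were kept, 14 of them without a usable symbol, which entered counts only. Differences are log2(FPKM + 1), and a 2-fold limit replaced a test. The 50 gene lists and the members were chosen with earlier results of these data known. Lists with at least 5 kept genes were described by counts and median. The genes named are NSUN6 and METTL1, the 25 highest and 25 lowest with a mean of at least 10 FPKM, all members of cell identity and locus lists, the 4 highest, 4 lowest and 4 most abundant members of other lists, and, in each chromosome run, the first and last gene and the 4 with the largest differences. Outside this rule IFIT1, OAS1, MX1, IRF1, PSMB10, FAM127B and the imprinted genes were named after their values were seen. A few list members are counted but not reported here by name. Gene order and promoters came from RefSeq (GRCh38.p14) and GC content and length from GENCODE 29, matched by symbol. The difference and run scripts were tested on simulated data. Alternatives tried were a pseudocount of 0.1, a limit of 1 FPKM or none, centring, exchanged fractions, a GC and length correction, and windows of 9 genes. Python 3.11.15, numpy 2.4.6 and pandas 2.3.3 were used.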

Additional observations from a re-analysis of the deposited data

How the results depend on the processing

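Adding 0.1 in place of 1 FPKM, centring on the median, and removing GC content and length (available for 7537 genes) kept the counts of higher and lower genes within 1.5 times, and 43 of 43 list medians moved by less than 0.58. Under a mean of at least 1 FPKM the median became -0.97 for squamous keratins and 1.49 for secretory genes. With no filter 1615 genes were higher and 1679 lower, and lists with many silent members moved to 0 or just across it: squamous keratins 0.028, cornified envelope -0.014, mesenchymal genes 0, HOX genes 0.0063 and integrins -0.021. Windows of 9 genes gave 34 higher and 34 lower runs.

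Exchanging the knockdown-labelled fractions, as the last line of the table orders them, moved most. The lower genes numbered 2098 and the NSUN6 difference was -2.84. The list median changed sign for the chromosome 3 locus (-0.75), insulin-like growth factors (-1.88), heat shock (-0.24), the spliceosome (-0.048), squamous transcription factors (-0.47), junctions (-0.88), fatty acids (-0.29), DNA replication (-0.30), Notch, Wnt and TGF-beta (-0.55), the proteasome (-0.44), RNA methylation (-0.18), p53 targets (0.016) and ribosomal proteins (0.19). It moved by over 0.58 with the same sign for mesenchymal genes (-1.49), 11q13 (1.63), interferon (0.55), the endoplasmic reticulum (0.072), glycolysis (-0.84), mitosis (-1.70), S100 (1.06), annexins (-1.30), tRNA synthetases (-1.93) and translation factors (-1.08). Named genes whose sign changed included CCND1 (-0.37), CCT6A (-0.22), CDH1 (-0.88), EGFR (-0.86), EPCAM (-1.21), FBXO28 (-0.62), FTL (1.77) and GBAS (-1.75). They also included HSP90AB1 (-0.23), HSPA5 (-0.44), IFIT1 (-0.24), ITGA6 (-1.74), PCNA (-0.46), PITX1 (0.047), RPLP1 (0.55), SCD (-0.087), SRSF3 (-0.046) and YTHDF2 (-1.08). Further named genes within 2-fold in the inputs, such as SNAI2, changed sign and are not all listed. The cause was not tested.

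No paired analysis was possible because each group holds 1 library and no test was made. For the same reason no replicate was left out in turn. FPKM give no depth, and the counting error of low genes is unknown.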

Other observations

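Several genes of imprinted regions were seen in the knockdown-labelled input and were at or near 0 in control cells. Of an imprinted gene normally only the copy inherited from a single parent is expressed. They were picked out after their values were seen. PEG10 had 0 and 101 FPKM in the inputs and 0.04 and 6.47 FPKM in the polyribosome libraries. SGCE, its immediate neighbour on chromosome 7, had 0.34 and 37 FPKM in the inputs and 0.21 and 6.4 FPKM in the polyribosome libraries. TFPI2, a protease inhibitor beside both of them, had 0 and 21.6 FPKM and 0 and 9.78 FPKM. MEST, on the same chromosome but outside that cluster, had 0 and 44.6 FPKM and 0.04 and 15.2 FPKM. PEG10 belongs to a family of genes that descend from retrotransposon gag genes, and 2 relatives on the X chromosome had the same order. LDOC1 had 0.03 and 44.9 FPKM in the inputs and 0 and 43.4 FPKM in the polyribosome libraries. FAM127A had 0 and 72.2 FPKM in the inputs and 0.04 and 87.5 FPKM in the polyribosome libraries, and it has near-identical copies. Its neighbour and relative FAM127B was within 2-fold in the inputs (0.87). All 6 genes were under 0.4 FPKM in both control libraries.

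Chromosomes 1 and 22 held runs that have not been described. On chromosome 22, 11 of 25 genes between APOL2 and POLR2F were lower and 0 higher, with an input median of -0.64. They include RAC2, a small GTPase best known from blood cells (276 and 27.7 FPKM in the inputs and 270.3 and 29 FPKM in the polyribosome libraries), and LGALS1, a secreted galectin (967 and 69.2 FPKM and 1107 and 115 FPKM). In polyribosome RNA that chromosome 22 run had 7 lower and 2 higher genes and a median of -0.43. Over all kept genes the polyribosome pair had 35.2% lower, 15.6% higher and a median of -0.38. On chromosome 1, 16 of 31 genes between LAMB3 and FBXO28 were lower and 5 higher (23 lower and 0 higher in polyribosome RNA). NENF, a secreted neurotrophic factor, had 413 and 42.6 FPKM in the inputs and 314 and 132 FPKM in the polyribosome libraries, and TATDN3 had 33.9 and 2.63 FPKM and 45.3 and 1.18 FPKM. Next to it and partly overlapping, between IARS2 and KCNK1, 24 of 44 genes were higher and 1 lower. In polyribosome RNA 13 of these 44 were higher and 10 lower. The histone gene H3F3A in that run had 152 and 903 FPKM in the inputs and 201 and 361 FPKM in the polyribosome libraries. In the inputs a run of lower and a run of higher genes thus met on 1 chromosome arm.

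The MTRNR2L genes, nuclear near-copies of the mitochondrial large rRNA gene, were among the genes lowest in the knockdown-labelled input, but a single library stood apart. MTRNR2L2 had 2427 and 19.8 FPKM in the inputs and 49.1 and 114 FPKM in the polyribosome libraries. MTRNR2L8 had 1250.2 and 12.3 FPKM in the inputs and 30.5 and 73.4 FPKM in the polyribosome libraries. The control input was the high library in each case, the 3 others were far lower, and the polyribosome pair had the opposite order. These genes share nearly all of their sequence and their values are uncertain.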
